A study of Mus musculus with 16 samples.

Results

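The genes of fatty acid uptake, binding and activation were followed in the left ventricle of mice with and without PPARalpha. The list held 10 genes: Lpl, Gpihbp1, Angptl4, Vldlr, Cd36, Slc27a1, Fabp3, Fabp4, Fabp5 and Acsl1. Its members on the array were the probe sets annotated to exactly 1 of these gene symbols, which gave 24 of 45101 probe sets and 9 of the 10 genes, out of 18193 genes represented. All 9 were among the 10916 genes that passed the filter on dim signals. Acsl1, which joins long-chain fatty acids to coenzyme A, was not analysed here.

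The study addressed which cardiac genes depend on PPARalpha, at rest and under a lasting pressure load. Total RNA was hybridised to Affymetrix mouse whole-genome arrays, with 4 arrays in each of 4 groups: PPARalpha-/- mice (KO) 28 days after transverse aortic constriction (TAC), KO mice 28 days after a sham operation, wild-type mice (WT) 28 days after TAC, and WT mice 28 days after a sham operation. TAC narrows the aorta and so loads the left ventricle with pressure. The labels used here give no strain, age or sex, name no cell type or promoter that would limit the deletion, and do not say whether the arrays of a group came from separate animals. The p-values below are thus set against array-to-array spread within a group, and part of that spread may be technical.

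Fatty acids reach the heart muscle cell in part from triglyceride carried by lipoproteins. Lipoprotein lipase frees them at the capillary wall, membrane proteins such as CD36 carry them inward, small cytosolic proteins bind them, and acyl-CoA synthetases activate them for oxidation or storage. PPARalpha is a nuclear receptor that is activated by fatty acids and is known as a regulator of fatty acid oxidation genes in the heart. It binds DNA with the retinoid X receptor, at direct repeats of the letters AGGTCA spaced by 1 base.

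Printed here are the promoters of the 3 members called lower in KO hearts averaged over both operations, in the tests below. They are shown because the repeat above is known for this receptor. The RefSeq promoter table (build GRCm38.p6) runs from 250 bases before to 50 bases after each annotated start and matched 5 of the 10 genes, with 9 promoters. Capitals mark AGGTCA or its reverse complement. The Cd36 promoter lies at chr5:17835847-17836146 on the minus strand, the Fabp3 promoter at chr4:130308488-130308787 on the plus strand, and the upstream Vldlr promoter at chr19:27216234-27216533 on the plus strand.
Cd36: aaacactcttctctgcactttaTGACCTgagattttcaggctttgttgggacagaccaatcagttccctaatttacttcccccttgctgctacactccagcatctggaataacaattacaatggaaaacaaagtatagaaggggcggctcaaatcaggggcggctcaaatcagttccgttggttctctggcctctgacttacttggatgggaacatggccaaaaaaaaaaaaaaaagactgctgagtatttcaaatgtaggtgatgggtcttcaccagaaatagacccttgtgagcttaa
Fabp3: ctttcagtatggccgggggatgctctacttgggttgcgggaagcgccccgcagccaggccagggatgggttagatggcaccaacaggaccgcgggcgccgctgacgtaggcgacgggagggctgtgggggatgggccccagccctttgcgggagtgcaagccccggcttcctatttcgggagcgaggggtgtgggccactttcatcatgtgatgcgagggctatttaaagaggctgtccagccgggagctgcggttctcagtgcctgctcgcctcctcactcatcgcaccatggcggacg
Vldlr: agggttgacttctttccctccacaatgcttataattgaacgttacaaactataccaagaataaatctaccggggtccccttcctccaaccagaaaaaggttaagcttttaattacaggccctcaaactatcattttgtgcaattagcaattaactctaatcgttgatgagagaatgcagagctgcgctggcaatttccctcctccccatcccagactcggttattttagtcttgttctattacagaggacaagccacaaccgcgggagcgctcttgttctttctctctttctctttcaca
On either strand, AGGTCA occurred in 1 of the 9 member promoters, that of Cd36, with its first base at position -228 from the start and on the minus strand of the gene. It occurred in 16.255% of all 32851 promoters in the table. The direct repeat, AGGTCA followed by any base and AGGTCA again, occurred in 0 of the 9 and in 0.04% of all promoters. With any base allowed in place of the T of each AGGTCA, it occurred in 0 of the 9 and in 0.381% of all. Every exact repeat contains the single AGGTCA. These counts say only which letters stand in these windows.

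The signals are linear intensities that share 1 scale, with a trimmed mean between 499.6 and 500.0 on every array and medians of 108.3 to 163.0. The number of arrays limits the precision. Ppara, the targeted gene, gave signals of 524.7, 423.9, 506.8 and 388.1 on the KO TAC arrays and 524.2 to 727.1 on the KO sham arrays, against 1384.9 to 2171.4 on the WT TAC arrays and 1546.0 to 2307.6 on the WT sham arrays. Its log2 fold change, KO over WT, was -1.92 ± 0.17 (SE) in TAC hearts (limma adjusted p = 1.18e-05) and -1.70 ± 0.17 in sham hearts (adjusted p = 5.71e-05), and all 16 arrays lay on the side their label gives. Whether its probes lie in the deleted part is not known here. The 10 cardiomyocyte markers gave summed signals of 441519 to 712537 on every array. Of 10 adipocyte markers 7 were measured. Adipoq, Cidec, Lep, Retn and Slc7a10 stayed between 2.7 and 239.1, Pparg was at 178.6 to 559.2 and Plin4 at 2972 to 4899, and 0 of the 2 tested were called in any comparison. The array WT TAC replicate 3 had the brightest 99.9th percentile of signal, 81987, and the lowest ones were on KO TAC replicate 3, at 49619, WT sham replicate 1, at 53035, and KO TAC replicate 2, at 54347. This percentile ran from 49619 to 61073 on the KO TAC arrays and from 63974 to 81987 on the WT TAC arrays, with no overlap. It ran from 53035 to 59805 on the WT sham arrays, all below the WT TAC arrays, and from 57562 to 67405 on the KO sham arrays. The genotype contrast in TAC hearts and the TAC response in WT hearts are thus also contrasts of array brightness. The interaction takes in both. The sources used here give no saturation flags, so saturation of the brightest probe sets could not be checked.

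Lower signals in KO hearts were found for Vldlr, Cd36 and Fabp3, and no member was called higher. A gene was called when its limma p-value, adjusted by Benjamini and Hochberg over all 10916 genes, was under 0.05. Among TAC hearts, 2 of the 9 members were lower in KO, Vldlr and Fabp3, where 1.14% of all genes tested were called lower. None was called higher, where 1.32% of all genes were. In sham hearts 0 of 9 were called (limma, 2 at an unadjusted p under 0.05), where 0.742% of all genes were called. Averaged over both operations, 3 were lower in KO, Vldlr, Cd36 and Fabp3, where 1.18% of all genes were called lower, and 0 were higher, against 1.09%. The median log2 difference of the 9 members was -0.07 in TAC hearts and -0.05 in sham hearts, beside 0.03 and 0.02 over all genes tested.

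**Figure D1:**
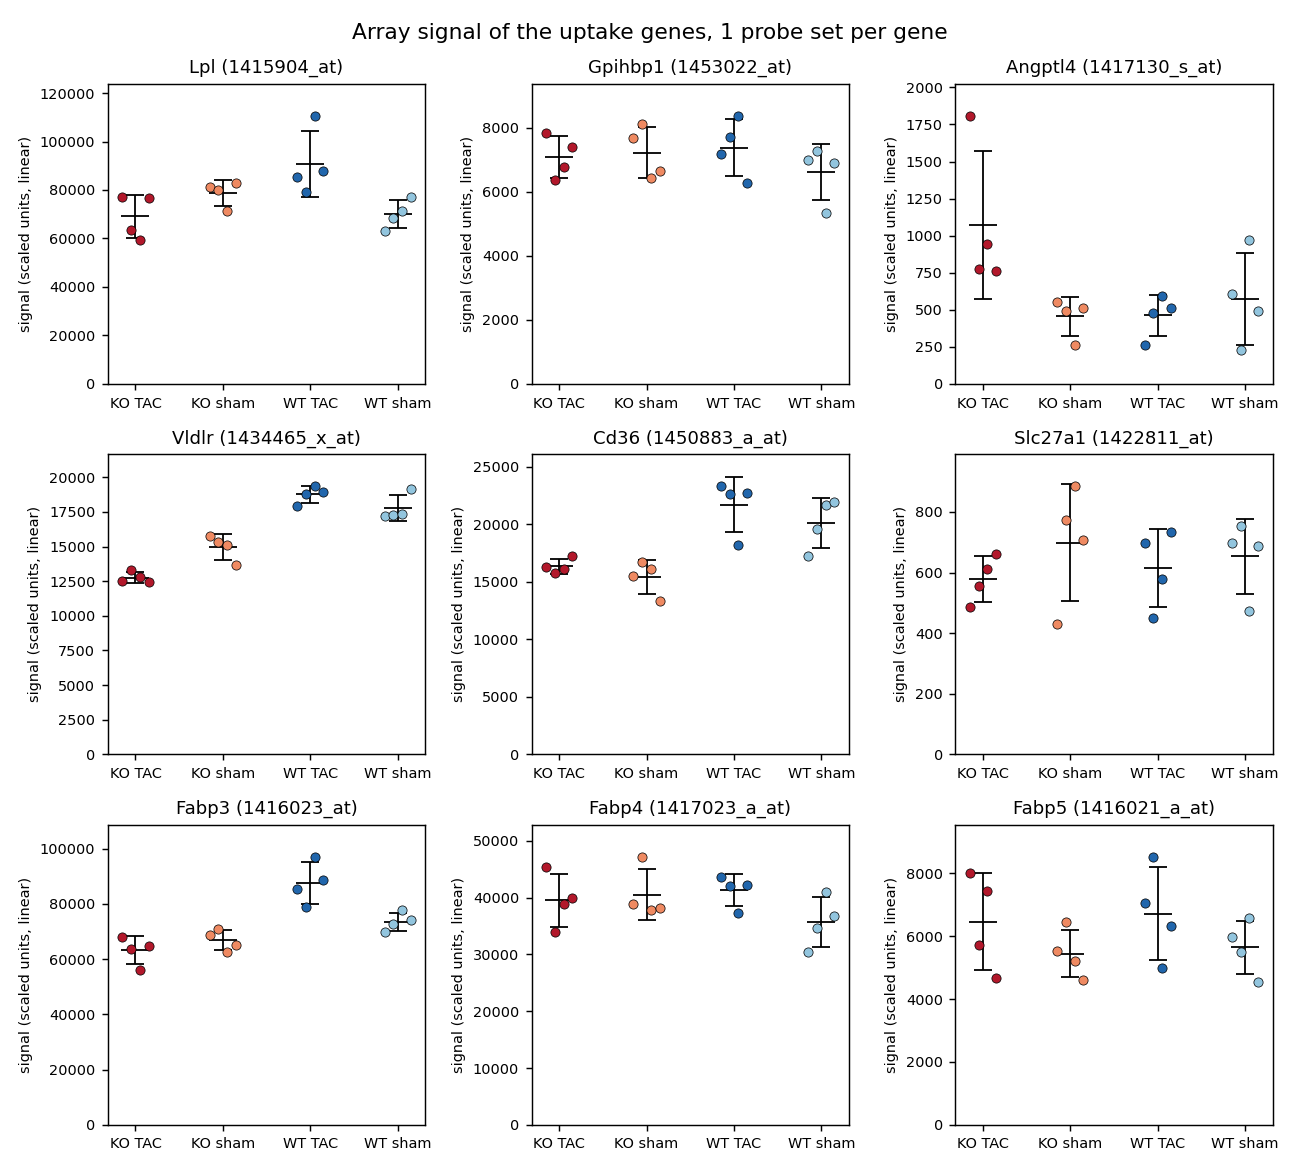
Signal of each of the 9 measured genes on every array (linear scaled units, axes from 0), in the groups KO TAC, KO sham, WT TAC and WT sham; points are arrays and bars the mean ± SD of 4 arrays. Vldlr on the KO TAC arrays spans 12421 to 13283 and lies below all WT arrays, whose lowest value is 17212.

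Vldlr encodes the very low density lipoprotein receptor, which binds triglyceride-rich particles at the cell surface. Its brightest probe set, 1434465_x_at, gave 12492, 13283, 12825 and 12421 on the KO TAC arrays and 15765, 15320, 15149 and 13649 on the KO sham arrays. It gave 17936, 18820, 19353 and 18946 on the WT TAC arrays and 17212, 17287, 17353 and 19156 on the WT sham arrays. All 8 KO arrays were below all 8 WT arrays, as for 0.605% of all genes tested, and the KO TAC arrays were also below every KO sham array. Vldlr fell 1.47-fold in KO TAC hearts against WT TAC hearts, a log2 fold change of -0.56 ± 0.08 (SE, n = 4 each, limma adjusted p = 0.00149). In KO sham hearts against WT sham hearts the log2 fold change was -0.25 ± 0.08 (limma adjusted p = 0.283), and the average over both operations was -0.40 ± 0.06 (limma adjusted p = 0.000639). With the arrays centred on their medians neither call was kept (adjusted p = 0.126 in TAC hearts and 0.0841 averaged).

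The other 5 Vldlr probe sets also gave lower means in KO, in both operations. Over all 6 the log2 fold changes ran from -0.81 to -0.18 in TAC hearts and from -0.79 to -0.25 in sham hearts. Each of the 6 separated its KO from its WT arrays in sham hearts, where 2.62% of all genes tested, by 1 probe set each, were lower without overlap. The 6 read the same gene on the same arrays and are not separate tests. They differed on the size: 1438258_at gave -0.81 in TAC and -0.46 in sham hearts, whereas 1435893_at gave -0.18 in TAC and -0.59 in sham hearts. A probe set whose name ends in _x_at may bind more than 1 transcript, as the suffix of the brightest one states. The sham difference was called when the 6 probe sets were averaged, at -0.53 (limma adjusted p = 0.0371), and when _x_at and _s_at probe sets were left out, at -0.46 (adjusted p = 0.0372), and the TAC difference was then not called (adjusted p = 0.0542 and 0.095).

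Cd36, the fatty acid translocase of the cell membrane, was lower in KO by about the same amount in both operations. Its brightest probe set, 1450883_a_at, gave 16276, 15754, 16093 and 17282 on the KO TAC arrays, against 23302, 22663, 18214 and 22695 on the WT TAC arrays. It gave 15520, 16700, 16079 and 13327 on the KO sham arrays, against 17269, 19591, 21661 and 21977 on the WT sham arrays. Within each operation all KO arrays lay below all WT arrays. The 2 genotypes overlapped only when the operations were pooled, since the KO TAC array at 17282 stood just above the WT sham array at 17269. The log2 fold change, KO over WT, was -0.40 ± 0.11 in TAC hearts (SE, n = 4 each, limma adjusted p = 0.0757) and -0.38 ± 0.11 in sham hearts (adjusted p = 0.203). Averaged over both it was -0.39 ± 0.08, a 1.31-fold fall (limma adjusted p = 0.0136), a call not kept with the arrays centred on their medians (adjusted p = 0.204).

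The other 2 Cd36 probe sets gave lower KO means too, with averaged log2 fold changes of -0.61 for 1450884_at and -0.29 for 1423166_at. On 1450884_at the 8 KO arrays ran from 4295 to 5578 and the 8 WT arrays from 6128 to 8698, with no overlap. With every probe set kept apart in the fit, 4 of the 24 member probe sets were called lower averaged over both operations, where 0.338% of all probe sets were, and 1, Vldlr 1434465_x_at, in TAC hearts, where 0.243% were. Among the 4 was 1450884_at (limma adjusted p = 0.0141), and 1450883_a_at was not (adjusted p = 0.0907).

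Fabp3, the heart-type fatty acid binding protein of the cytosol, fell in KO TAC hearts. Its brightest probe set, 1416023_at, gave 68122, 63612, 56168 and 64831 on the KO TAC arrays, against 85269, 78850, 97056 and 88696 on the WT TAC arrays. It gave 68672, 71058, 62680 and 65264 on the KO sham arrays, against 69932, 72553, 77702 and 74075 on the WT sham arrays. The TAC groups did not overlap, while in sham hearts 1 KO array lay inside the WT range. The log2 fold change was -0.47 ± 0.09 in TAC hearts, a 1.38-fold fall (SE, n = 4 each, limma adjusted p = 0.0152), -0.14 ± 0.09 in sham hearts (adjusted p = 0.76), and -0.30 ± 0.07 averaged over both (adjusted p = 0.0222).

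The size of the Fabp3 difference in TAC hearts depended on the scaling of the arrays. On all 16 arrays its signal was above the 99.9th percentile of that array. The log2 fold change in TAC hearts was -0.10 (limma adjusted p = 0.586) after quantile normalization, where the averaged difference had an adjusted p of 0.0724. It was -0.34 (adjusted p = 0.262) with the 3 arrays of the highest or lowest spike-in signal dropped, and -0.23 (adjusted p = 0.512) with each array's 99.9th percentile as a covariate, a setting chosen after seeing the data. Without KO TAC replicate 3 it was -0.41 (adjusted p = 0.0552), and without WT sham replicate 3 the average over both operations was not called (adjusted p = 0.0526). The dimmer probe set 1444844_at, which lay far below that brightness, gave 361.6, 354.0, 291.6 and 290.6 on the KO TAC arrays, against 544.4, 625.6, 540.4 and 597.4 on the WT TAC arrays. It gave 219.2, 186.4, 275.8 and 312.9 on the KO sham arrays, against 458.4, 620.7, 326.8 and 420.2 on the WT sham arrays. KO arrays were below WT arrays in each operation, and the averaged log2 fold change was -0.85 ± 0.14 (limma adjusted p = 0.0118 with every probe set kept apart).

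**Figure D2:**
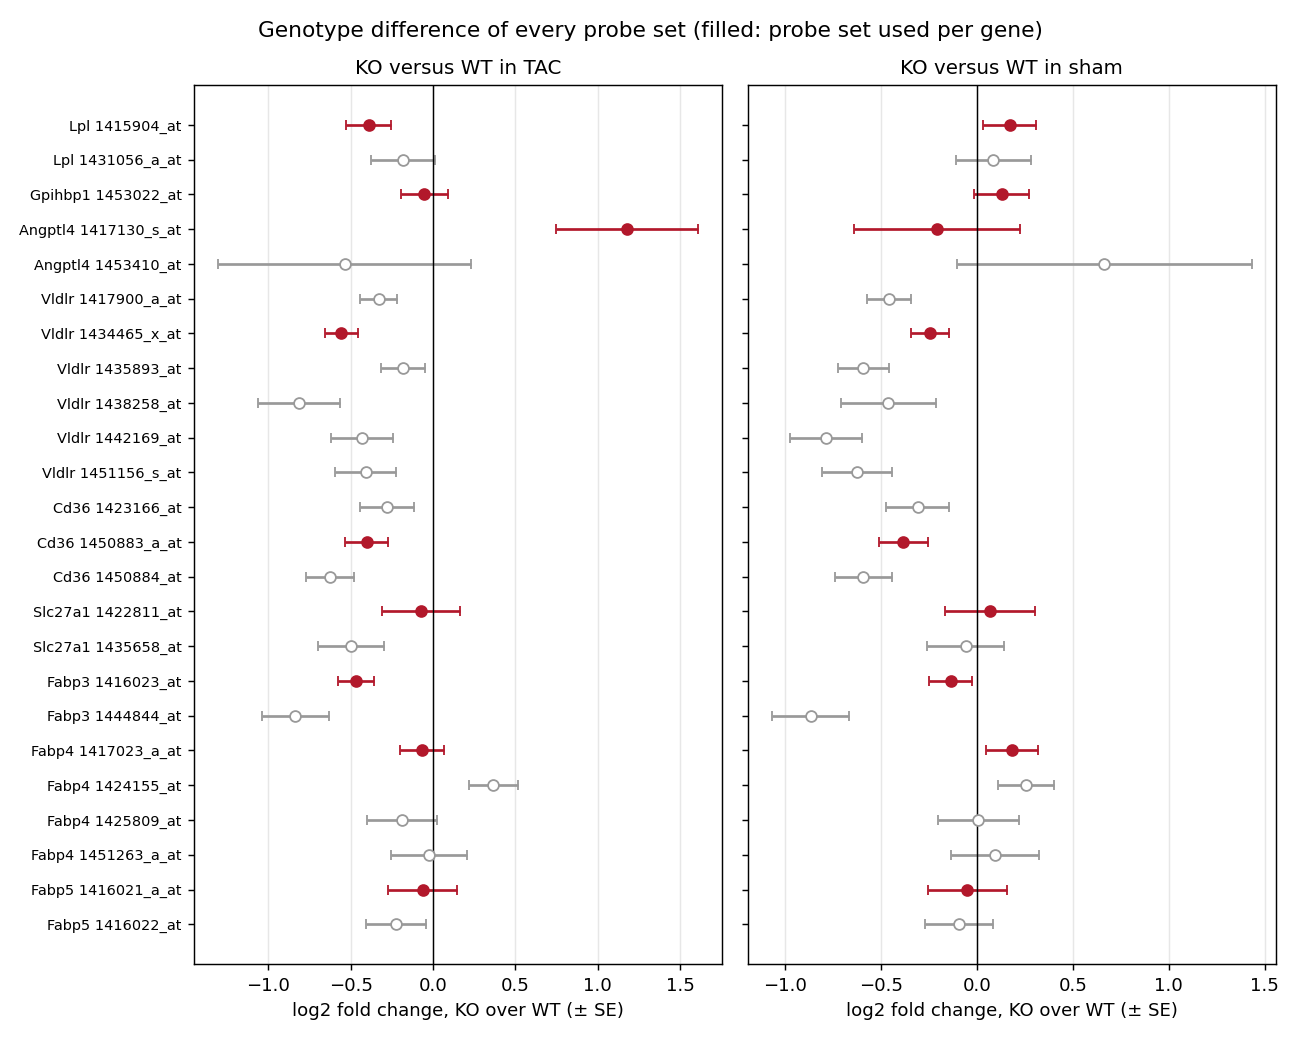
Log2 fold change, KO over WT, of all 24 probe sets in TAC hearts (left) and in sham hearts (right), with bars of ± SE; filled points are the probe set used for each gene. In TAC hearts 22 of the 24 probe sets lie below 0, and in sham hearts 15 do, including all 6 of Vldlr and all 3 of Cd36. Several of the 24 read the same gene on the same arrays, so these are not counts of separate genes.

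Lpl encodes lipoprotein lipase, the enzyme that frees fatty acids from circulating triglyceride. Its brightest probe set, 1415904_at, gave 76924, 63579, 59309 and 76575 on the KO TAC arrays, against 85361, 79131, 110612 and 87882 on the WT TAC arrays. It gave 81114, 79800, 71162 and 82888 on the KO sham arrays, against 63181, 68417, 71483 and 76989 on the WT sham arrays. KO TAC lay below WT TAC with no overlap, and the sham groups overlapped with the KO mean above. The log2 fold change was -0.39 ± 0.12 in TAC hearts (n = 4 each, limma adjusted p = 0.122) and 0.17 ± 0.12 in sham hearts (adjusted p = 0.78), neither of them called. The second probe set, 1431056_a_at, gave -0.18 in TAC and 0.09 in sham hearts, with overlapping groups.

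Lpl followed the brightness of the array. It too exceeded the 99.9th percentile on all 16 arrays, was highest on WT TAC replicate 3 and was lowest on KO TAC replicate 3, the arrays with the highest and the lowest such percentile. After quantile normalization its log2 fold change in TAC hearts was -0.02, and with the 99.9th percentile as a covariate it was 0.01. A limma fit with trend and robust variances called the difference (adjusted p = 0.0338). Over the 16 arrays, with group means subtracted, its closest partners among 10542 genes were Uqcrb, a respiratory chain subunit (Pearson r = 0.977), and Myl3, a ventricular myosin light chain (r = 0.976). Among the members it ran closest with Fabp3 (r = 0.843). These correlations are descriptions, since all genes share the same 16 arrays and their scaling.

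**Figure D3:**
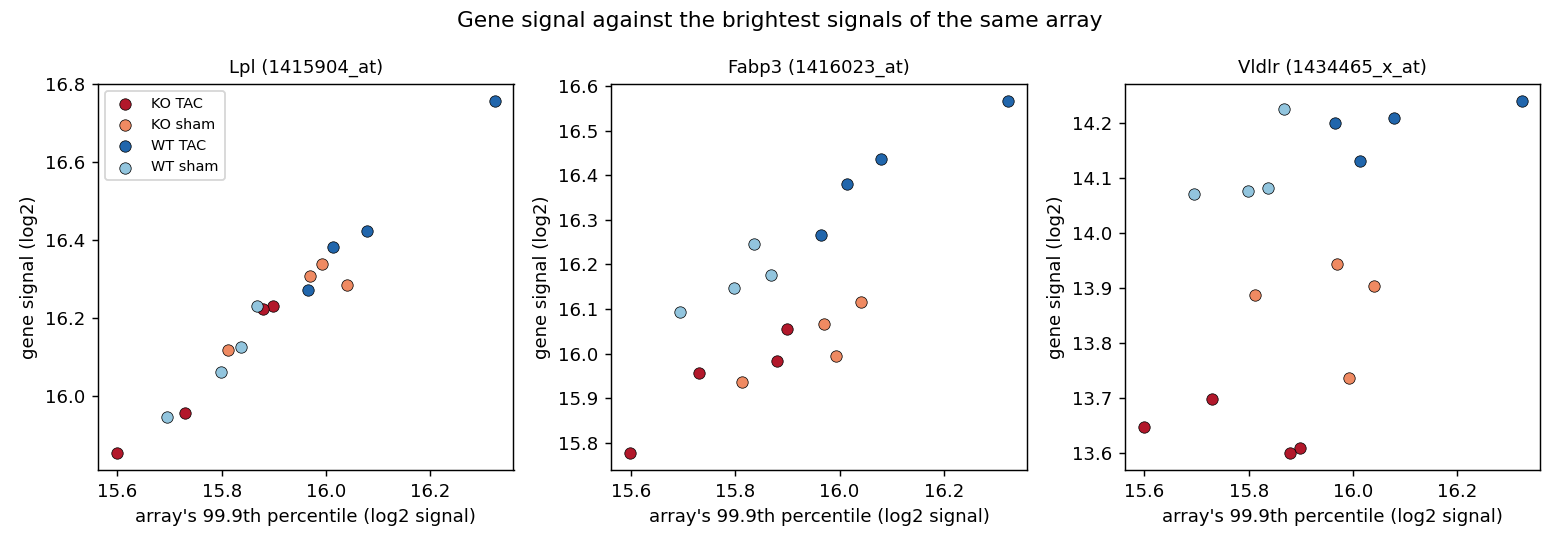
Log2 signal of Lpl, Fabp3 and Vldlr on each of the 16 arrays against the log2 of that array's 99.9th percentile, coloured by group. Lpl follows the percentile across all groups. The Vldlr values of the KO arrays lie below those of every WT array. In TAC hearts the percentiles of KO and WT arrays do not overlap, so the genotypes cannot be compared there at equal brightness.

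Gpihbp1 anchors lipoprotein lipase to the capillary endothelium. Its 1 probe set had mean signals of 7099 ± 654 on the KO TAC and 7226 ± 798 on the KO sham arrays, against 7384 ± 891 on the WT TAC and 6626 ± 879 on the WT sham arrays (SD, n = 4 each). All groups overlapped. The 95% interval of the log2 difference, KO over WT, ran from -0.33 to 0.22 in TAC hearts and from -0.14 to 0.40 in sham hearts. The 11 endothelial markers had a median log2 difference of 0.08 in TAC and 0.05 in sham hearts, with 0 of 11 called. The 10 cardiomyocyte markers had medians of -0.26 in TAC and 0.15 in sham hearts, with 0 of 10 called. Higher in KO TAC than in WT TAC hearts were 4 of 10 macrophage markers and 2 of 7 fibroblast markers, where 1.32% of all genes tested were called higher. The macrophage medians were 0.44 in TAC and 0.29 in sham hearts, and the fibroblast medians were 0.07 and 0.05. The 3 atrial markers had medians of 2.95 in TAC and 1.47 in sham hearts, with 0 of 3 called. Their summed signals were 752.6 to 5231 on the KO TAC arrays, against 253.6 to 2074 on the WT TAC arrays. They were 1322 to 26325 on the KO sham arrays, against 415.1 to 8129 on the WT sham arrays. For TAC over sham the atrial medians were -1.35 in KO and -2.61 in WT hearts, with 0 of 3 called. The 1 erythroid marker tested was higher in KO TAC hearts (1.07), and 1 of 2 brown adipocyte markers tested was lower in KO averaged over both operations, while Ucp1 stayed between 8.3 and 42.3 on all arrays. Of 5 skeletal muscle markers only Myot, at 4730 to 16535, passed the filter, and it was higher in KO TAC hearts (1.32) and in KO sham hearts (0.90). Myh4, Myh1, Actn3 and Tnnt3 stayed at 155.6 or less. The part of these shifts in the members' differences was not tested, and in such whole-tissue RNA fewer cells of a type and less RNA per cell cannot be told apart.

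Angptl4 encodes a secreted inhibitor of lipoprotein lipase and is known as a PPAR target. Its brighter probe set, 1417130_s_at, gave 1808.4, 772.2, 941.2 and 763.9 on the KO TAC arrays, against 262.9, 480.8, 590.4 and 512.9 on the WT TAC arrays. It gave 554.7, 492.4, 262.8 and 511.8 on the KO sham arrays, against 603.8, 225.5, 970.4 and 494.6 on the WT sham arrays. Each KO TAC array exceeded all WT TAC and all KO sham arrays, though 1 WT sham array, at 970.4, lay inside the KO TAC range. The log2 fold change, KO over WT, was 1.18 ± 0.41 in TAC hearts (n = 4 each, limma adjusted p = 0.166) and -0.21 ± 0.41 in sham hearts (adjusted p = 0.931), neither of them called.

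Over the alternatives the Angptl4 log2 fold change in TAC hearts ran from 0.32, the mean of both its probe sets, to 1.84 and was called in 0 of 33, with an adjusted p between 0.0698 and 0.8. Without KO TAC replicate 1, the highest array, it was 0.89. The other probe set, 1453410_at, was dim, at 2.3 to 43.9 on the KO TAC arrays and 3.9 to 175.6 on the WT TAC arrays, and its values were at the floor of 11.9 on 1 KO TAC, 2 KO sham, 1 WT TAC and all 4 WT sham arrays. It gives no measure of whether Angptl4 differed.

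Slc27a1, the fatty acid transport protein FATP1, was not called in any comparison. The signals of its brighter probe set, 1422811_at, averaged 578.8 ± 76.1 on the KO TAC and 698.9 ± 193.6 on the KO sham arrays, against 614.7 ± 128.7 on the WT TAC and 653.9 ± 123.7 on the WT sham arrays (SD, n = 4 each). All groups overlapped. The 95% interval of the log2 difference, KO over WT, ran from -0.54 to 0.40 in TAC hearts and from -0.40 to 0.54 in sham hearts. The second probe set, 1435658_at, gave 340.7, 313.8, 449.0 and 354.1 on the KO TAC arrays, against 633.8, 527.9, 675.6 and 774.6 on the KO sham arrays, with no overlap. Its log2 fold change, TAC over sham, was -0.84 ± 0.20 in KO hearts (limma adjusted p = 0.124 with every probe set kept apart) and -0.40 ± 0.20 in WT hearts (adjusted p = 0.811). For KO over WT in TAC hearts 1435658_at gave -0.50, with a 95% interval from -0.93 to -0.06 (limma adjusted p = 0.3885 in the same fit). In sham hearts it gave -0.06, and the genotypes overlapped in both operations.

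Fabp4 and Fabp5 are the adipocyte-type and epidermal-type fatty acid binding proteins, both also known in endothelium. The brightest Fabp4 probe set, 1417023_a_at, averaged 39545 ± 4687 on the KO TAC and 40501 ± 4474 on the KO sham arrays, against 41313 ± 2767 on the WT TAC and 35702 ± 4380 on the WT sham arrays (SD, n = 4 each). Its 95% interval for KO over WT ran from -0.32 to 0.19 in TAC hearts and from -0.07 to 0.44 in sham hearts. The 4 Fabp4 probe sets did not go one way in TAC hearts. The log2 difference was 0.37 on 1424155_at, whose KO TAC arrays, at 1658 to 2186, all exceeded the WT TAC arrays, at 1209 to 1480, and it was -0.19 to -0.02 on the other 3.

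Fabp5 probe set 1416021_a_at averaged 6463 ± 1541 on the KO TAC and 5450 ± 760 on the KO sham arrays, against 6723 ± 1482 on the WT TAC and 5650 ± 849 on the WT sham arrays (SD, n = 4 each). The groups overlapped throughout. Its 95% interval for KO over WT ran from -0.48 to 0.35 in TAC hearts and from -0.46 to 0.36 in sham hearts. On the probe sets used per gene, a difference in TAC hearts of the size of that of Cd36, -0.40, lay inside the intervals of Fabp5 and Slc27a1. It lay outside those of Gpihbp1 and Fabp4. With every probe set kept apart, it lay inside those of Fabp4 1425809_at, from -0.65 to 0.27, and 1451263_a_at, from -0.52 to 0.47. It lay outside that of Fabp4 1424155_at, from 0.05 to 0.68.

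The response to TAC was compared within each genotype. In KO hearts 0 of the 9 members were called (limma, 2 at an unadjusted p under 0.05), where 2.57% of all genes tested were. In WT hearts 0 of 9 were called (2 at an unadjusted p under 0.05), as were 0% of all genes. The 9 members had a median log2 response of -0.04 in KO hearts and 0.16 in WT hearts, beside medians of 0.00 over all genes in both.

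**Figure D4:**
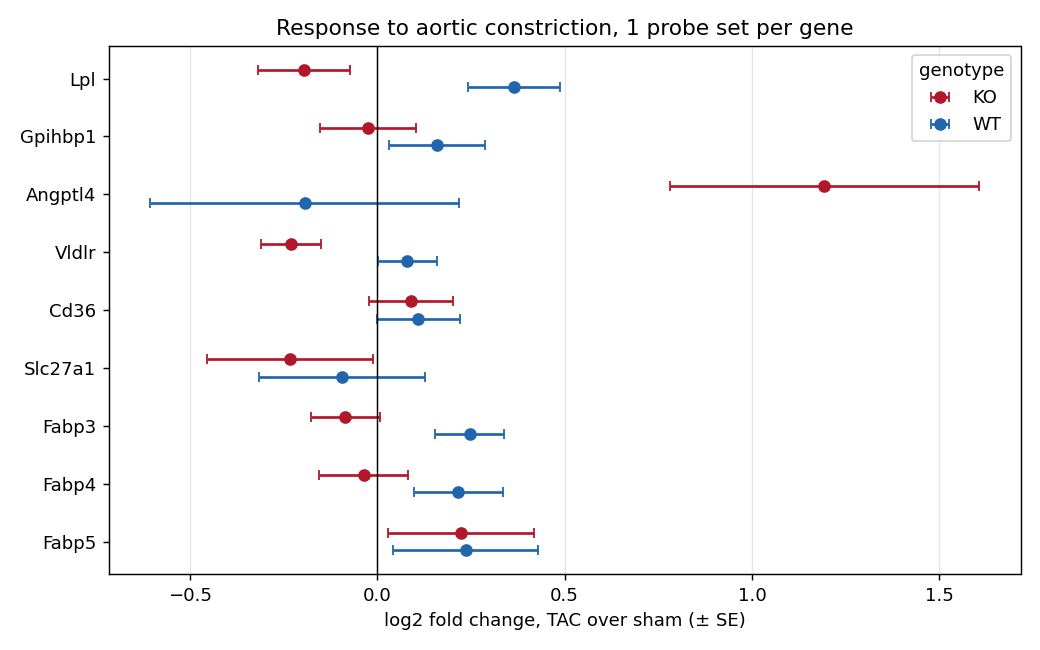
Log2 fold change, TAC over sham, of each measured gene in KO hearts (upper point of each pair) and in WT hearts (lower point), with bars of ± SE. Angptl4 in KO hearts, at 1.19, has the widest distance from 0 of the 18 responses, and Cd36 lies near 0 in both genotypes.

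Arrays without overlap were counted separately. In KO hearts 1 member, Vldlr, had all its TAC arrays below all its sham arrays on 1434465_x_at, where 5.35% of all genes did, and 1, Angptl4, had them all above, where 5.42% did. In WT hearts 2 members, Lpl and Fabp3, had all their TAC arrays above the sham arrays, where 2.64% did. Every WT TAC array also had a higher 99.9th percentile of signal than every WT sham array. Between genotypes, 4 members (Vldlr, Cd36, Fabp3 and Lpl) were lower without overlap in KO TAC hearts, where 4.42% of all genes were, and 1, Angptl4, was higher, where 5.13% were. In KO sham hearts 2 were lower without overlap, Vldlr and Cd36, where 2.62% of all genes were.

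The log2 response of Lpl was -0.20 ± 0.12 in KO hearts (limma adjusted p = 0.475) and 0.37 ± 0.12 in WT hearts (adjusted p = 0.585). That of Fabp3 was -0.08 ± 0.09 in KO hearts (adjusted p = 0.726) and 0.25 ± 0.09 in WT hearts (adjusted p = 0.61). Its dimmer probe set, 1444844_at, gave 0.41 in KO and 0.37 in WT hearts, neither of them called with every probe set kept apart. After quantile normalization the WT responses of Lpl and Fabp3 were 0.04 and -0.10. Vldlr gave -0.23 ± 0.08 in KO hearts (adjusted p = 0.153) and 0.08 ± 0.08 in WT hearts (adjusted p = 0.856). In KO hearts 4 of its 6 probe sets had responses above 0, only 1434465_x_at separated its TAC from its sham arrays, and the response was 0.02 without _x_at and _s_at probe sets. Angptl4 gave 1.19 ± 0.41 in KO hearts (adjusted p = 0.153) and -0.19 ± 0.41 in WT hearts (adjusted p = 0.947). Cd36 gave 0.09 ± 0.11 in KO hearts and 0.11 ± 0.11 in WT hearts, with 95% intervals from -0.15 to 0.33 and from -0.13 to 0.35.

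The interaction, the TAC response in KO minus that in WT hearts, was called for 0 of the 9 members (limma, 4 at an unadjusted p under 0.05), as for 0% of all genes tested. It was -0.56 ± 0.17 for Lpl (limma adjusted p = 0.348), -0.31 ± 0.11 for Vldlr (adjusted p = 0.394), -0.33 ± 0.13 for Fabp3 (adjusted p = 0.424) and 1.39 ± 0.58 for Angptl4 (adjusted p = 0.443). Among the 6 Vldlr probe sets it was below 0 for 2 and above 0 for 4, from -0.35 to 0.41. On the dimmer Fabp3 probe set, 1444844_at, it was 0.03. With the 99.9th percentile as a covariate it was 0.04 for Lpl and 0.02 for Fabp3, and after quantile normalization it was -0.03 for Lpl and 0.22 for Fabp3.

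A wider list of 48 genes of lipid uptake was read beside the members, covering other FATP and acyl-CoA synthetase proteins, lipase partners and receptors. Of these, 29 passed the filter. Scarb2, a lysosomal membrane protein of the CD36 family, was lower in KO in both operations, and Dbi, which binds acyl-CoA, was lower in KO sham hearts and averaged over both operations. Those 2 were the only ones of 29 called in KO sham hearts, where 0.742% of all genes were called, and Scarb2 the only one in KO TAC hearts, where 1.14% of all genes were called lower and 1.32% higher. Averaged over both operations 2 of 29 were called, both lower, where 1.18% of all genes were.

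Scarb2 gave 2113, 3090, 2650 and 2555 on the KO TAC arrays, against 5411, 5594, 5028 and 5936 on the WT TAC arrays. It gave 2207, 2995, 2989 and 2463 on the KO sham arrays, against 5410, 5638, 5628 and 7441 on the WT sham arrays. The genotypes did not overlap, with a log2 fold change of -1.09 ± 0.14 in TAC hearts (limma adjusted p = 0.000683) and -1.18 ± 0.14 in sham hearts (adjusted p = 0.000422). Its second probe set was also lower, at -1.23 in TAC and -1.46 in sham hearts.

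Dbi gave 5888 to 7185 on the KO sham arrays, against 9211 to 10162 on the WT sham arrays, a log2 fold change of -0.50 ± 0.10 (limma adjusted p = 0.0259). In TAC hearts it was -0.18 (adjusted p = 0.384), and averaged over both operations -0.34 ± 0.07 (limma adjusted p = 0.0166), a call kept under 29 of 33 alternatives. Another of its probe sets, with no _x_at suffix, gave -0.31 in TAC and -0.39 in sham hearts, with no overlap in either. The sham call was kept under 19 of 34 alternatives. Acss1, which activates acetate in mitochondria, was the only one of the 29 called between operations, lower in KO TAC than in KO sham hearts at -0.39 ± 0.09 (limma adjusted p = 0.0311). That was 1 of 29, where 2.57% of all genes were called, and it kept that call under 18 of 34 alternatives. In WT hearts 0 of 29 were called for TAC over sham (limma, 4 at an unadjusted p under 0.05), with the smallest p for Zdhhc5, a palmitoyltransferase (log2 fold change 0.39), and for the acyl-CoA synthetase Acsl5 (log2 fold change 0.33). For the interaction 0 of 29 were called (5 at an unadjusted p under 0.05), with the smallest p for Sel1l, which aids lipase maturation (interaction of 0.60 on the log2 scale), and for the acetate-activating Acss2 (interaction of 0.47).

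The remaining members had partners of their own when group means were subtracted. Over the 16 arrays Vldlr ran closest with Zwint (r = 0.858) and D17H6S56E-5 (r = 0.85), Cd36 with Hmgb3 (r = 0.883) and Tmem41b (r = 0.873), and Fabp3 with Chchd10 (r = 0.92) and Sdhb (r = 0.914). Angptl4 ran closest with Rbbp5 (r = 0.846) and Fkbpl (r = 0.819), and Slc27a1 with Nkx2-5 (r = 0.914) and Zbtb7a (r = 0.882). Gpihbp1 ran closest with Smdt1 (r = 0.893) and Lzts1 (r = 0.882), Fabp4 with Tcap (r = 0.862) and Ncapd3 (r = 0.849), and Fabp5 with Tm4sf1 (r = 0.921) and Leprot (r = 0.919). Among pairs of members, Cd36 and Fabp4 had the highest r after Lpl and Fabp3 (r = 0.688). As descriptions over arrays that share 1 scaling, these values carry no test.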

How the data were processed

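Total RNA of 16 left ventricular samples was labelled with biotin, per the labels' protocols. GCOS 1.4 is the software that the submitters' processing notes name. The deposited signal intensity is linear, and it had a common trimmed mean (2nd to 98th percentile) on every array. The sources used here do not give its settings. Probe sets were named from the platform annotation: 34945 had 1 gene symbol, 932 several and 9160 none, and 64 were controls. Values were floored at 11.9, the 10th percentile of all values, and turned to log2. Each gene was represented by its brightest probe set, and the dimmest 40% of genes were left out. A linear model with 1 mean per group was fitted to the 16 arrays together in limma 3.58.1 (R 4.3.3), and p-values were adjusted by Benjamini and Hochberg over 10916 genes, with calls at 0.05. A second fit kept every probe set apart. The fit was tested on simulated data. Groups came from the sample titles.

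The named genes were every member with all probe sets, Ppara, the pathway genes called in any comparison (or the 2 with the smallest p), and for each member the 2 genes with the highest correlation. The members and lists were chosen with earlier results of these data known. Alternatives covered normalization, floor, filter, probe set choice, variance model, spike-in signal (as a covariate, or with 3 arrays left out), marker covariates, a replicate block and leaving out each array.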

Additional observations from a re-analysis of the deposited data

Results flagged for a closer look

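The log2 signals of each member probe set, floored at a signal of 11.9, were screened for 1 array standing apart from the other 3 of its group. The measure was the gap to its nearest neighbour as a share of the group's range (Dixon's ratio). Ratios below are of those log2 values, while the signals printed beside them are linear and not floored. Of 95 groups screened, 9 passed the 95% critical value, and chance flags about 1 in 20. No interaction between genotype and operation was called for a member.

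For Vldlr, WT sham replicate 4 on 1434465_x_at was high at 19156, with the others at 17212 to 17353 (ratio 0.924). WT sham replicate 1 on 1438258_at was high at 3454, with the others at 2435 to 2516 (ratio 0.907), and WT TAC replicate 3 on 1442169_at was low at 663.0, with the others at 1033 to 1045 (ratio 0.974). For Cd36, WT TAC replicate 3 on 1450883_a_at was low at 18214, with the others at 22663 to 23302 (ratio 0.887), and without it the Cd36 difference, KO over WT in TAC hearts, was called at -0.49 (limma adjusted p = 0.0338).

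For Angptl4, KO sham replicate 3 on 1417130_s_at was low at 262.8, with the others at 492.4 to 554.7 (ratio 0.841), and KO sham replicate 1 on 1453410_at was high at 67.7, with the others at 3.9 to 13.2 (ratio 0.94). For Fabp4, KO sham replicate 2 on 1417023_a_at was high at 47179, with the others at 37757 to 38840 (ratio 0.873). KO TAC replicate 4 on 1424155_at was high at 2186, with the others at 1658 to 1689 (ratio 0.934), and WT sham replicate 3 on 1451263_a_at was high at 16755, with the others at 11787 to 12203 (ratio 0.901).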

How the results depend on the processing

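No member or pathway value called as reported changed sign under the alternatives run. The number of members called for KO over WT in TAC hearts, 2 as reported, was 0 with arrays centred on their medians and with each array's brightest signal as a covariate (chosen after seeing the data), and 4 with trend and robust variances. It was 1 with quantile normalization, no filter, probe sets averaged per gene, no _x_at or _s_at probe sets, only the arrays compared, no arrays of extreme spike-in signal, spike-in signal as a covariate, or every probe set kept apart (again by the probe set used for each gene). In sham hearts, 0 as reported, it was 1 with probe sets averaged per gene and without _x_at and _s_at probe sets. Averaged over both operations, 3 as reported, it was 0 with centred arrays and, counting only the probe set used for each gene, 1 with every probe set kept apart. By any of their probe sets, Vldlr, Cd36 and Fabp3 were each called in that fit. Leaving out each array gave 1 to 3 in TAC hearts (1 without KO TAC replicate 3), 2 to 3 averaged, and 0 to 0 in sham hearts, for both TAC responses and for the interaction. With centred arrays the all-gene median was 0.22 for KO over WT in TAC hearts, 0.13 for TAC over sham in KO hearts, -0.12 in WT hearts and 0.25 for the interaction. The cause was not tested.

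Vldlr averaged over both operations was called under 32 of 33 alternatives, Cd36 under 31 of 33 and Fabp3 under 26 of 33. In TAC hearts Vldlr was called under 30 of 34 and Fabp3 under 25 of 34. Vldlr lost its call with centred arrays (adjusted p = 0.126 in TAC hearts, 0.0841 averaged) and, in TAC hearts, with the brightest signal as a covariate (0.0653). In TAC hearts Vldlr also lost it with probe sets averaged per gene and without _x_at and _s_at probe sets, as given above. Cd36 averaged lost it with centred arrays (0.204) and, on the probe set used for it, with every probe set kept apart (0.0907). Cd36 in TAC hearts was called under 4 of 34. Over all genes, the calls for KO over WT ran from 56 to 424 in TAC hearts and from 38 to 103 in sham hearts, and those for TAC over sham from 55 to 426 in KO hearts and from 0 to 2 in WT hearts. Calls for the interaction ran from 0 to 13.

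Whether the replicate numbers pair the samples is not known here. With group means subtracted, same-numbered arrays of different groups correlated at -0.185 to 0.137, which cannot exclude a pairing. With the replicate number as a block the member counts were 2 in TAC hearts and 2 averaged, where Fabp3 had an adjusted p of 0.0629, and Acss1 had 0.0636 for TAC over sham in KO hearts; the counts of the other comparisons were 0.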
